A study of Homo sapiens with 6 samples.

Results

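The 10 genes described here are ATF4, a transcription factor of the cellular stress response, and 9 genes whose transcription it is known to drive. They were picked by symbol as known genes of this response, with earlier results of these data known: PHGDH, PSAT1, SHMT2 and MTHFD2 of serine synthesis and folate metabolism, ASNS of asparagine synthesis, and CHAC1, DDIT3, TRIB3 and DDIT4, which respond to stress. All 10 were among the 58735 genes of the deposited tables, and 9 of them were among the 14736 genes with enough reads for a test. PHGDH, with 1 to 6 reads in a library, did not pass that filter.

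The RNA came from MDA-MB-231, an established line of human triple-negative breast cancer cells with wild type recorded as its genotype. The cells received either vehicle (n = 3) or SCH, an extract of the herb Salvia chinensis Benth made by boiling in water and freeze-drying, at 100 mg/l (n = 3), and RNA was taken after 24 h. SCH is a mixture of compounds, and a single line, dose and time were sequenced. The sample records give RPMI-1640 as the medium while the methods of the study give DMEM, and these media differ in their amino acids. Total counts were 20291379, 18714240 and 18334857 in vehicle replicates 1 to 3 and 16836369, 17979434 and 18414924 in SCH replicates 1 to 3.

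ATF4 is the effector of the integrated stress response. Kinases that sense unfolded protein, missing amino acids, missing heme or double-stranded RNA phosphorylate the translation initiation factor eIF2, which slows most protein synthesis but lets ribosomes reach the reading frame of ATF4. The protein then binds DNA with C/EBP family partners and turns on genes for amino acid synthesis, amino acid uptake and tRNA charging. Its mRNA and its protein can therefore move apart, and only mRNA was measured here. In serine synthesis, PHGDH, PSAT1 and PSPH act in turn on a glycolytic intermediate. SHMT2 then splits serine into glycine and a methylene group carried by folate, which MTHFD2 oxidizes in the mitochondrion.

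The libraries carried the markers of the labelled line. VIM, the mesenchymal intermediate filament, had 263 ± 4.45 FPKM in vehicle, and the receptor kinase AXL had 293 ± 7.40 FPKM (SD, n = 3). FPKM divides the fragments of a gene by its length and by the size of the library, so levels of different genes were compared on it. Of the luminal markers, ESR1 had 1 to 4 reads, PGR 0 or 1 and CDH1 1 to 6 in a library, whereas GATA3 and FOXA1 were detected at low levels. GATA3 fell from 3.84 ± 0.174 to 2.24 ± 0.354 FPKM and FOXA1 rose from 0.995 ± 0.158 to 2.24 ± 0.277 FPKM (SD, n = 3), with adjusted p of 4.36e-06 and 4.41e-07 in edgeR. Markers of other cell types (PTPRC, PECAM1, ALB, EPCAM and COL1A1) summed to 7.68, 6.86 and 7.62 FPKM in vehicle and 5.70, 5.28 and 5.84 in SCH. Most of that sum was EPCAM, an epithelial adhesion gene, and none of the 5 was at 0 in every library. Of the 4 of these that were tested, COL1A1 rose while PTPRC and EPCAM fell, as did 5 of the 6 line markers (VIM, EGFR, AXL, KRT8 and KRT18). The part of these shifts in the results below was not tested.

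ATF4 mRNA fell in SCH-treated cells together with PSAT1, SHMT2, MTHFD2, TRIB3 and DDIT4, each to between 60.6% and 85.9% of its vehicle level. DDIT3 was the only member that rose, and CHAC1 and ASNS did not pass the threshold. Of the 9 tested members, 6 (66.7%) were lowered and 1 (11.1%) was raised by edgeR's quasi-likelihood test at a Benjamini-Hochberg adjusted p under 0.05. The treatment moved much of the transcriptome: the same test called 58.7% of all tested genes, 29.4% lowered and 29.3% raised, and 62.4% of tested genes had groups that did not overlap. The median log2 fold change was -0.48 over the 9 members and -0.0034 over all tested genes. When counts were scaled by library size alone, the median over all genes moved up to 0.099, and 62.6% rather than 49.9% of the called genes were raised. In RNA from whole cultures, fewer cells with much of a transcript and less of it in each cell cannot be told apart.

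**Figure D1:**
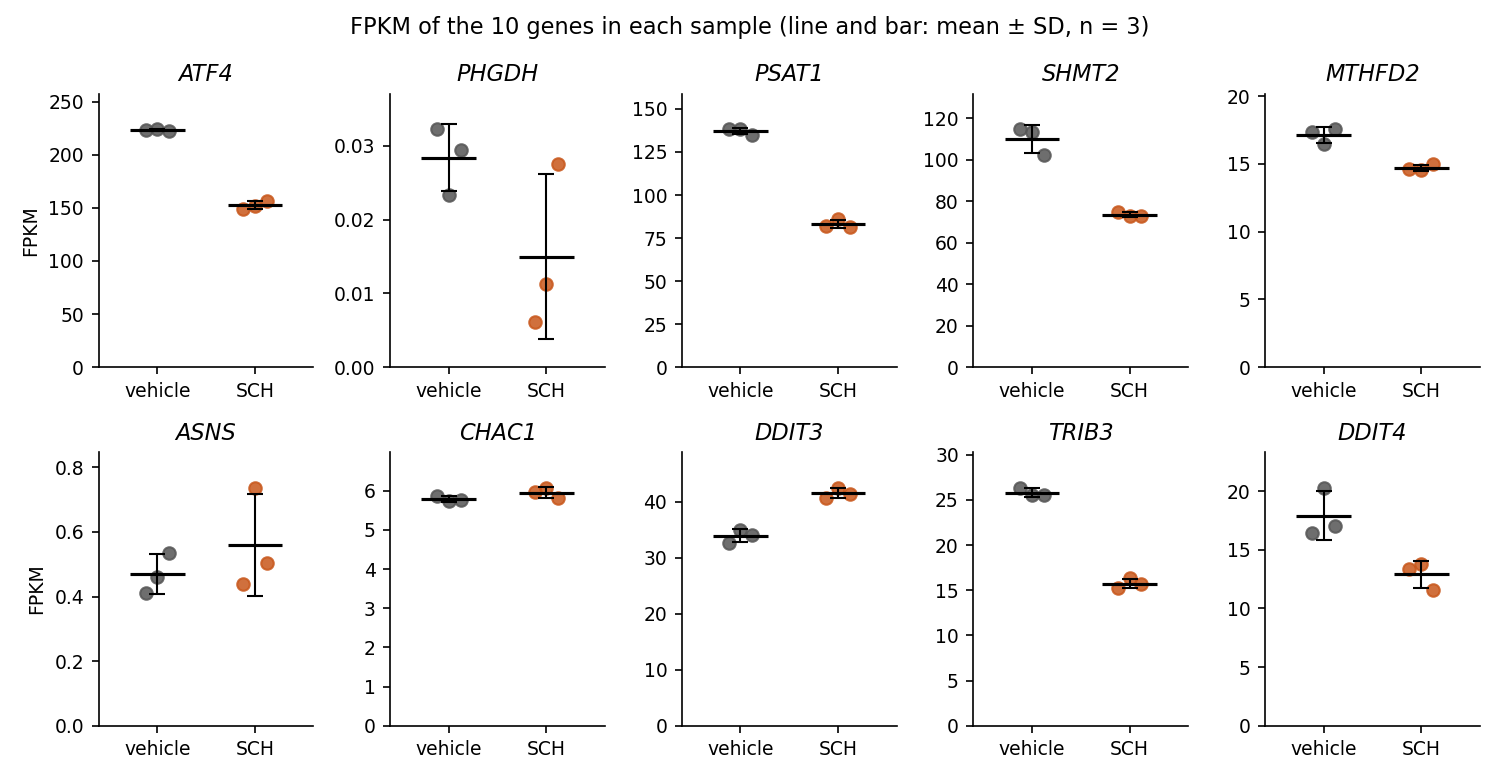
FPKM of each of the 10 genes in the 3 vehicle and 3 SCH libraries, with 1 point for each library and a bar at the group mean with its SD. ATF4, PSAT1, SHMT2, MTHFD2, TRIB3 and DDIT4 lie lower in every SCH library than in any vehicle library, DDIT3 lies higher, and ASNS, CHAC1 and PHGDH overlap.

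ATF4 itself (ENSG00000128272) lies on the plus strand of chromosome 22 of GRCh38, from 39519695 to 39522685. It had 224, 224 and 222 FPKM in vehicle and 149, 151 and 157 FPKM in SCH. All SCH libraries were below all vehicle libraries, and the gap was many times the spread within either group. The mean went from 223 ± 0.986 to 152 ± 3.75 FPKM (SD, n = 3), which is 68.3% of the vehicle mean. In edgeR the log2 fold change was -0.56 with a standard error of 0.045 and an adjusted p of 2.73e-10. Among all tested genes, 25.9% changed by at least as much. The most counted of its processed copies, ATF4P3, had 115 reads over all libraries, 0.214% of the number for ATF4, and reads that match both places were not measured.

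In the serine pathway, the first enzyme had almost no reads and the second was abundant. Low expression of PHGDH is a known trait of this line. PHGDH (ENSG00000092621, chromosome 1, 119648411 to 119744226), which commits the glycolytic intermediate to serine, had 6, 4 and 5 reads in vehicle and 1, 2 and 5 reads in SCH. With so few reads the gene did not pass the filter of the test, so no fold change is given. PSAT1 (ENSG00000135069, chromosome 9, 78297143 to 78330093), the aminotransferase of the following step, had 138, 138 and 135 FPKM in vehicle and 81.8, 85.8 and 81.7 FPKM in SCH. It had the largest fall of the 9 tested members, by 0.73 ± 0.047 on the log2 scale (SE, adjusted p = 5.59e-12 in edgeR), with all SCH libraries below all vehicle libraries. PSPH, the phosphatase that releases serine, stands in the wider list of the pathway. It had 19.72, 19.31 and 19.95 FPKM in vehicle and 11.5, 12.2 and 13.2 FPKM in SCH, a fall by 0.68 on the log2 scale.

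The mitochondrial folate enzymes among the members fell by unequal amounts. SHMT2 (ENSG00000182199, chromosome 12, 57229327 to 57234935), the serine hydroxymethyltransferase of mitochondria, had 115, 113 and 102 FPKM in vehicle and 74.8, 72.8 and 72.9 FPKM in SCH. Its vehicle libraries were spread more widely than its SCH libraries, but the lowest of them was above every SCH library. The log2 fold change was -0.59 with a standard error of 0.049 (adjusted p = 4.60e-10, edgeR). MTHFD2 (ENSG00000065911, chromosome 2, 74198562 to 74217565), the mitochondrial methylene-tetrahydrofolate dehydrogenase, had 17.4, 16.4 and 17.6 FPKM in vehicle and 14.6, 14.6 and 15.0 FPKM in SCH. The groups did not overlap, with a log2 fold change of -0.23, a standard error of 0.055 and an adjusted p of 0.00114 in edgeR. This call was lost when library size alone set the scale (log2 fold change -0.12, adjusted p = 0.0591 in edgeR). Of all tested genes, 61.3% changed by at least as much as MTHFD2.

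The stress-responsive members divided. TRIB3 (ENSG00000101255, chromosome 20, 362835 to 397559), a pseudokinase that restrains ATF4 and AKT, had 26.4, 25.5 and 25.5 FPKM in vehicle and 15.2, 16.3 and 15.7 FPKM in SCH. The fall of 0.72 ± 0.056 on the log2 scale (SE, adjusted p = 1.61e-10, edgeR) was close to that of PSAT1, and no SCH library reached the vehicle range. DDIT4 (ENSG00000168209, chromosome 10, 72273920 to 72276036), an inhibitor of mTORC1 also called REDD1, had 16.4, 20.3 and 17 FPKM in vehicle and 13.3, 13.8 and 11.6 FPKM in SCH. It varied more between replicates than the other called members, and its groups still did not overlap (log2 fold change -0.48, standard error 0.084, adjusted p = 3.60e-05, edgeR).

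DDIT3 (ENSG00000175197, chromosome 12, 57516588 to 57521737), which encodes the pro-apoptotic transcription factor CHOP, went the other way. It had 32.6, 35 and 34 FPKM in vehicle and 40.7, 42.5 and 41.3 FPKM in SCH, so all SCH libraries were above all vehicle libraries. The log2 fold change was 0.29 with a standard error of 0.061 and an adjusted p of 3.31e-04 in edgeR, and 53.1% of tested genes changed by at least as much. CHAC1 (ENSG00000128965, chromosome 15, 40952962 to 40956519), which degrades glutathione and is a target of ATF4 together with CHOP, had 5.88, 5.73 and 5.75 FPKM in vehicle and 5.97, 6.08 and 5.81 FPKM in SCH. These ranges overlapped, and the log2 fold change of 0.034 with a standard error of 0.097 had an adjusted p of 0.785 in edgeR.

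ASNS (ENSG00000070669, chromosome 7, 97852118 to 97872542, minus strand), the asparagine synthetase, had 0.412, 0.459 and 0.536 FPKM in vehicle and 0.439, 0.737 and 0.502 FPKM in SCH. The groups overlapped, and SCH replicate 2 was the highest of the 6 libraries (log2 fold change 0.25, standard error 0.23, adjusted p = 0.366, edgeR). These 35 to 63 reads in a library may not be a full measure of ASNS mRNA. In GENCODE 29, whose gene positions match those of the deposited tables, 44.6% of its exonic bases and 96.1% of its coding bases (1683 of 1752) also lie in exons of other genes, chiefly the processed transcript AC079781.5 on the same strand. That row had 43, 38 and 31 reads in vehicle and 22, 22 and 21 in SCH. How reads in shared exons were counted is not given in the sources used here.

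Other members share exons too. DDIT4 has 41.2% of its exonic bases within exons of its antisense gene DDIT4-AS1, which was listed at 0 in all 6 libraries. For DDIT3, the only raised member, 355 of its exonic bases (27.2%) are shared with MARS1 on the opposite strand, the methionine tRNA synthetase. MARS1 had 7124, 6487 and 6129 reads in vehicle and 4892, 5010 and 5126 in SCH, several times the 818 to 1065 reads of DDIT3, and it fell by 0.39 on the log2 scale. A further 58 bases are shared with MBD6, which had 730 to 991 reads in a library. The part of these neighbours in the DDIT3 value was not tested. With all overlapping genes, the shared part was 39.6% for DDIT3, 33.2% for MTHFD2 and 9.51% for SHMT2, and 0 for ATF4, PSAT1, PHGDH, CHAC1 and TRIB3. The library kit does not mark strand, so reads of a gene and of an antisense neighbour cannot be told apart in such stretches.

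By level per length in vehicle, the order was ATF4, PSAT1, SHMT2, DDIT3, TRIB3, DDIT4, MTHFD2, CHAC1, ASNS and PHGDH. DDIT4 (17.9 ± 2.09 FPKM) and MTHFD2 (17.1 ± 0.593 FPKM) overlapped there, and all other neighbours in the order were apart in every library. In SCH the order was the same but for MTHFD2, at 14.7 ± 0.220 FPKM, which stood above DDIT4, at 12.9 ± 1.14 FPKM, without overlap. The length in FPKM counts all exonic bases, of which 44.6% in ASNS, 41.2% in DDIT4, 39.6% in DDIT3 and 33.2% in MTHFD2 are shared. If reads in shared stretches were not counted, the levels of these genes are too low, and their places in the order were not tested for this. The sum over the 10 genes was 576, 579 and 560 FPKM in vehicle and 396, 404 and 401 FPKM in SCH.

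Ratios of genes within a library do not depend on the scaling between libraries. An exact permutation test over the 6 samples, two-sided, was used for them, and its smallest possible p with 3 against 3 is 0.1. Of 11 ratios, 7 were apart between the groups, each with exact p = 0.1 and 0.157 after Benjamini-Hochberg adjustment over the 11, so none could pass a threshold of 0.05. DDIT3 relative to ATF4 went from 0.152 in vehicle to 0.272 in SCH, a shift of 0.84 on the log2 scale. ASNS relative to ATF4 shifted by 0.78, with ASNS itself not past the threshold in edgeR. TRIB3 relative to ATF4 shifted by -0.16, with groups apart. For DDIT4 relative to ATF4 the shift was 0.081 with overlapping groups.

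**Figure D2:**
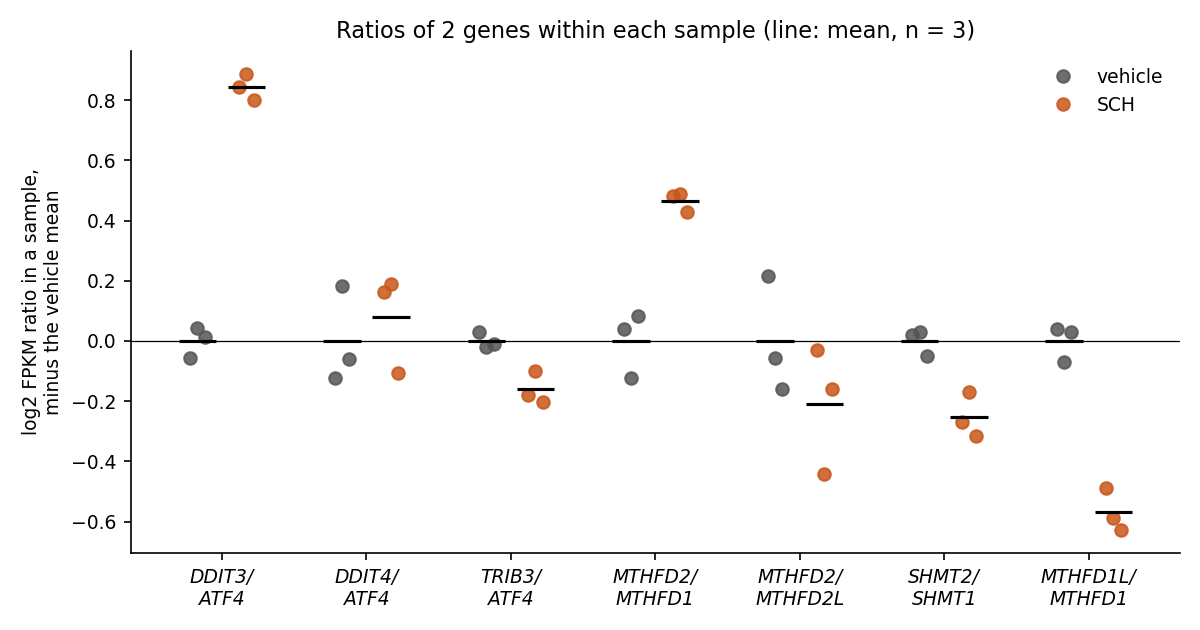
Log2 ratio of the FPKM of 2 genes in the same library, less the vehicle mean of that ratio, for 7 of the 11 pairs, with 1 point for each of the 3 vehicle and 3 SCH libraries and a line at each group mean. DDIT3/ATF4 is higher in all SCH libraries, MTHFD1L/MTHFD1 is lower, and DDIT4/ATF4 and MTHFD2/MTHFD2L overlap.

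Among the paired compartments, SHMT2 relative to its cytosolic counterpart SHMT1 went from 17.3 to 14.5, a shift of -0.25. MTHFD2 relative to the cytosolic trifunctional enzyme MTHFD1 went up by 0.47, and the falls of the 2 genes were 0.23 and 0.69 on the log2 scale. MTHFD1L, the mitochondrial formyl-tetrahydrofolate synthetase, went down relative to MTHFD1 by 0.57 on the log2 scale. The ratio of MTHFD2 to its paralog MTHFD2L overlapped between groups (exact permutation p = 0.4). PSAT1 and PSPH relative to PHGDH overlapped as well, and these rest on the 1 to 6 reads of PHGDH.

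The wider list of serine, glycine and folate enzymes held 22 further genes, of which 17 were tested. In these, 12 (70.6%) were lowered, 2 (11.8%) raised and 3 did not pass the threshold, with a median log2 fold change of -0.43. Of all tested genes, 29.4% were lowered and 29.3% raised. MTHFD1L had the largest fall, from 15.4, 15.1 and 14.9 FPKM in vehicle to 6.59, 6.10 and 6.35 FPKM in SCH (log2 fold change -1.26, standard error 0.061, adjusted p = 4.50e-14, edgeR). MTHFD1 fell by 0.69 and PSPH by 0.68 on the log2 scale, and SHMT1 fell by 0.34. CTH, the cystathionine gamma-lyase, was among the raised genes, with a log2 fold change of 0.28, and was named after its values were seen. MTHFD2L had 1.30 FPKM in both groups, with a log2 fold change of -0.0093 and a standard error of 0.12. ALDH1L1 and CBS were at 0 reads in all libraries, and ALDH1L2, GLDC and AMT had too few reads for a test.

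**Figure D3:**
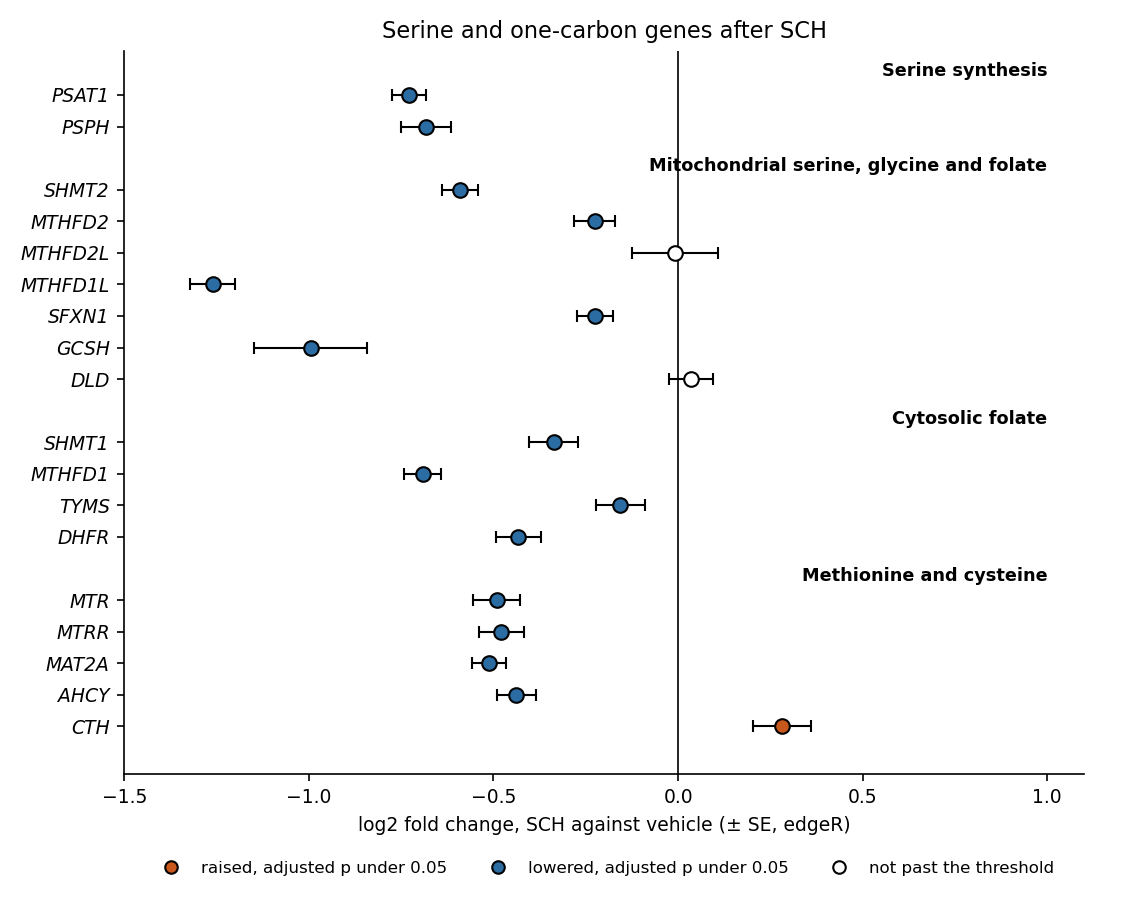
Log2 fold change of SCH against vehicle from edgeR for 18 serine, glycine, folate and methionine genes grouped by step and compartment, with standard errors as bars (n = 3 per group). Most points lie below 0, with MTHFD1L the lowest at -1.26 and CTH the highest at 0.28.

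Of the asparagine, proline and glutamate list (14 genes, all tested), 9 (64.3%) were lowered, 2 (14.3%) raised and 3 did not pass, with a median of -0.28. The shares over all tested genes were 29.4% lowered and 29.3% raised. PYCR1, the mitochondrial pyrroline-carboxylate reductase of proline synthesis, had 34.3, 35.2 and 29.4 FPKM in vehicle and 12.9, 11.6 and 13.2 FPKM in SCH. Its log2 fold change of -1.4 with a standard error of 0.071 (adjusted p = 9.28e-14, edgeR) was the largest of the list, and 29.7% of its exonic bases are shared with other genes. BCAT1, the cytosolic branched-chain aminotransferase, fell by 1.2 on the log2 scale. GPT2, the mitochondrial alanine aminotransferase, fell by 0.71, and PYCR3 fell by 0.70. GLUL, the glutamine synthetase, was among the raised genes, with a log2 fold change of 0.45, and was named after its values were seen.

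Amino acid transporters known as ATF4 targets were mostly lowered. Of 10 tested, 6 (60%) were lowered and 1 (10%), SLC1A4 (log2 fold change 0.40), was raised, with a median of -0.33. Among all tested genes, 29.4% were lowered and 29.3% raised. Scaling by library size alone gave 5 lowered and 2 raised transporters, against 3295 lowered and 5519 raised of all 14736 tested genes. SLC6A9, a glycine transporter, went from 5.61 ± 0.537 to 2.35 ± 0.0646 FPKM (SD, n = 3), a log2 fold change of -1.26. SLC7A5, the light chain of the leucine transporter LAT1, had 158 ± 8.04 FPKM in vehicle and 99.2 ± 5.08 in SCH. Its heavy chain SLC3A2 did not pass the threshold (log2 fold change -0.027, standard error 0.050). SLC38A1 and SLC7A1, carriers of glutamine and of cationic amino acids, fell by 0.52 and 0.49 on the log2 scale. The cystine transporter SLC7A11 had a log2 fold change of -0.13 (adjusted p = 0.0819, edgeR).

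All 13 genes of the list of tRNA charging, which holds 12 cytosolic aminoacyl-tRNA synthetases and the tRNA exporter XPOT, were lowered, against 29.4% of all tested genes. Their median log2 fold change was -0.33, and they ranged from -0.62 to -0.15. With scaling by library size alone, 10 of the 13 were lowered and none raised, against 3295 lowered and 5519 raised of all 14736 tested genes. The largest fall was that of IARS1, the isoleucine enzyme, from 75.7 ± 2.77 to 49.5 ± 2.28 FPKM (SD, n = 3). AARS1 fell by 0.50, YARS1 by 0.49 and XPOT by 0.48 on the log2 scale. Summed over the list, the level was 745, 740 and 741 FPKM in vehicle and 569, 581 and 583 FPKM in SCH.

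**Figure D4:**
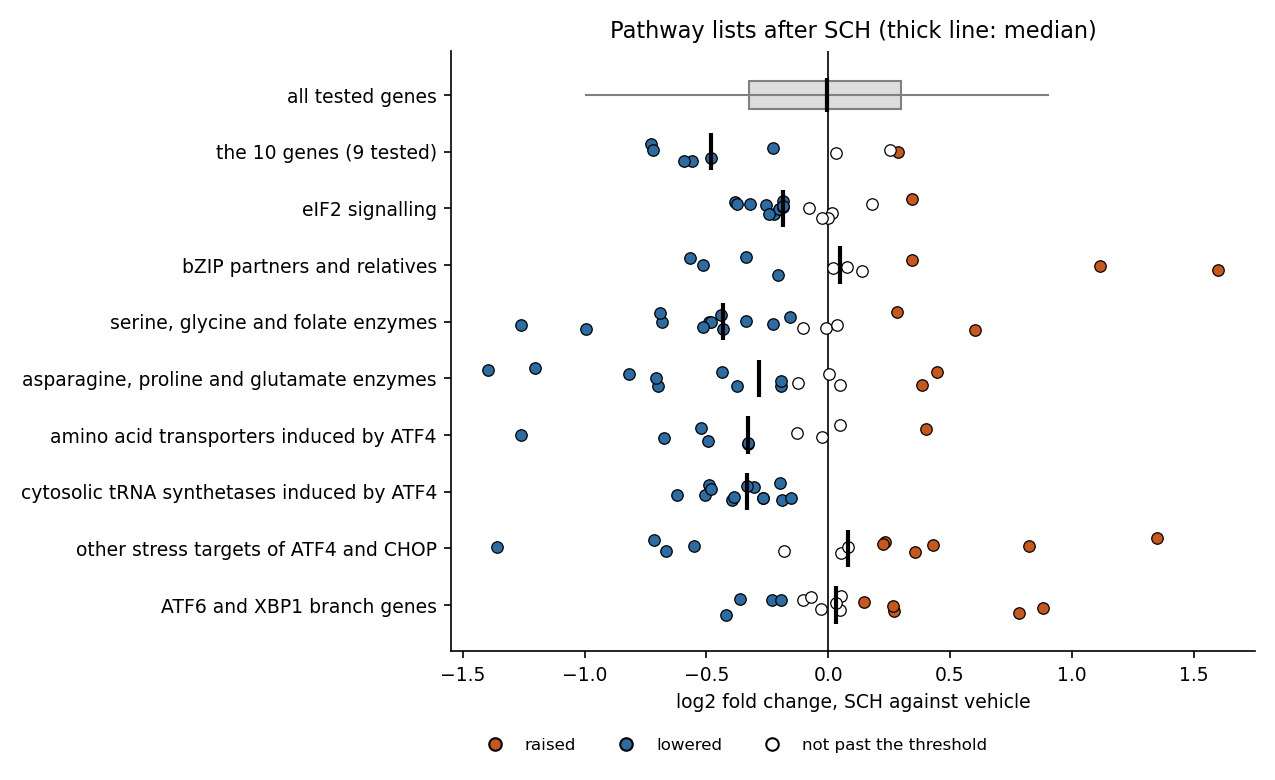
Log2 fold change of SCH against vehicle from edgeR for every tested gene of the member group and of the 8 other lists, with a bar at each list's median. For all tested genes a grey box spans the quartiles and a line runs from the 5% to the 95% point. The tRNA synthetase list lies wholly below 0, and the other stress targets and the ATF6 and XBP1 branch genes lie on both sides of it.

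Upstream of ATF4, 10 of 16 genes of eIF2 signalling (62.5%) were lowered, 1 (6.25%) was raised and 5 did not pass, with a median of -0.18. Of all tested genes, 29.4% were lowered and 29.3% raised. When library size alone set the scale, 5 of the 16 were lowered and 3 raised. On that scale, 3295 of all 14736 tested genes were lowered and 5519 raised. EIF2B5, the catalytic subunit of the eIF2B exchange factor, and IMPACT, an inhibitor of the kinase GCN2, each fell by 0.38 on the log2 scale. EIF2S3, the gamma subunit of eIF2, fell by 0.32. The gene that rose was PPP1R15A, known as GADD34, which brings a phosphatase to eIF2 and reverses its phosphorylation. It went from 127 ± 9.35 to 163 ± 12.8 FPKM (SD, n = 3), with a log2 fold change of 0.34 and an adjusted p of 1.76e-05 in edgeR. Of the kinases, EIF2AK2 (PKR) and EIF2AK4 (GCN2) fell by 0.22 and 0.20, whereas EIF2AK1 (HRI) and EIF2AK3 (PERK) did not pass the threshold.

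Among 10 bZIP relatives and partners of ATF4, 3 (30%) were raised and 4 (40%) lowered, near the 29.3% and 29.4% of all tested genes. These counts became 6 raised and 3 lowered with scaling by library size alone, which gave 5519 raised and 3295 lowered of all 14736 tested genes. ATF3, a bZIP factor induced by many stresses, had the largest rise, from 2.43, 2.59 and 2.27 FPKM in vehicle to 7.55, 7.13 and 7.54 FPKM in SCH (log2 fold change 1.6, standard error 0.087, adjusted p = 2.97e-13, edgeR). The other genes raised were NFE2L2, the antioxidant factor NRF2, by 0.34, and CEBPA, which went from 0.589 ± 0.119 to 1.28 ± 0.447 FPKM (SD, n = 3) and shares 43.4% of its exonic bases with other genes. ATF5, a close relative of ATF4, fell by 0.57, and JDP2 fell by 0.51. CEBPB had 91.8 ± 1.33 and 93.5 ± 2.18 FPKM and did not pass the threshold.

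The other stress targets of ATF4 and CHOP went both ways, with 6 of 13 (46.2%) raised and 4 (30.8%) lowered, against 29.3% and 29.4% of all tested genes, and a median of 0.080. KLHL24 had a log2 fold change of 1.35. GADD45A, a growth arrest gene that p53 also induces, went from 48.1 ± 3.94 to 85.7 ± 11.9 FPKM (SD, n = 3). EIF4EBP1, the translation repressor 4E-BP1, fell by 0.67 on the log2 scale and NUPR1 by 0.55. Genes of the ATF6 and XBP1 branches of the unfolded protein response had 5 of 15 (33.3%) raised and 4 (26.7%) lowered, close to the 29.3% and 29.4% of all tested genes, with a median of 0.030 that was -0.0023 under upper quartile scaling. ERN1, the sensor IRE1 alpha, rose by 0.88 and its target DNAJB9 by 0.78. The chaperone HSPA5, also called BiP, went from 240 ± 3.31 to 188 ± 8.83 FPKM (SD, n = 3), and XBP1 fell by 0.42 on the log2 scale.

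ATF4 with a C/EBP partner binds a composite element whose letters are TGATGNAA, where N is any base. This one motif was searched on both strands of RefSeq promoter windows of GRCh38.p14, from 250 bases before to 50 bases after each gene's start. It was found in 1270 of 35116 windows (3.62%). Of 125 genes, the members and those of the 8 lists, 99 had a window, and 18 of these held the motif. Among the members with a window it was in those of ASNS and CHAC1, the genes whose mRNA did not pass the threshold. It was in 6 of 11 windows of the tRNA charging list, AARS1, CARS1, IARS1, MARS1, NARS1 and TARS1, all of them lowered. In the transporter list it was in 3 of 9 windows, those of SLC7A1 and SLC38A1, both lowered, and of SLC3A2, which did not pass the threshold. The stretches below carry the element in the promoters of members and of some of the other genes named above. Those of the 3 transporters and of CARS1, MARS1, NARS1 and TARS1 are not shown. Each is given 5′ to 3′ on the strand of its gene with the motif in capitals, reading TTGCATCA or the like where it lies on the other strand.
ASNS: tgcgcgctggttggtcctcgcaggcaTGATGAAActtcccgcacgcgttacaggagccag
CHAC1: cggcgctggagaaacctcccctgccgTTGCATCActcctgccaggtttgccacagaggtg
MTHFD1L: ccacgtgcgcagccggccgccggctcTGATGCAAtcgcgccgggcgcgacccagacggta
BCAT1: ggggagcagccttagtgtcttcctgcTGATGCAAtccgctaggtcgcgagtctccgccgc
AARS1: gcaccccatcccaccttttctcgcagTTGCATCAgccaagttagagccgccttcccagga
IARS1: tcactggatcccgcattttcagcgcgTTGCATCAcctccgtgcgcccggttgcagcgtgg
ATF3: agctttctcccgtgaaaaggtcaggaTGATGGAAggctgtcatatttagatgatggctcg

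These stretches lie at chr7:97872443-97872502 for ASNS, chr15:40953236-40953295 for CHAC1, chr6:150866331-150866390 for MTHFD1L, chr12:24949116-24949175 for BCAT1, chr16:70289660-70289719 for AARS1, chr9:92293677-92293736 for IARS1 and chr1:212565190-212565249 for ATF3. ASNS, BCAT1, AARS1 and IARS1 are on the minus strand and the others on the plus strand. Of the 7 genes, MTHFD1L, BCAT1, AARS1 and IARS1 fell, ATF3 rose, and ASNS and CHAC1 did not pass the threshold. Of all list genes with the motif, 17 were tested, of which 11 (64.7%) were lowered and 1 was raised, with a median log2 fold change of -0.20. Of those without it, 76 were tested, of which 43 (56.6%) were lowered and 16 were raised, with a median of -0.19. The shares over all tested genes were 29.4% lowered and 29.3% raised. The genes with the motif include 6 of the tRNA charging list, in which all 13 genes were lowered. The part of the lists in this comparison was not tested. A match is a description of the letters in the window and no evidence of binding.

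The pattern of ATF4 over the 6 libraries was shared by a great many genes. Pearson's r with ATF4 in log2 normalized counts was above 0.9 for 2558 of 10713 genes (those averaging 100 counts or more), and below -0.9 for 2559. These points are the same 6 libraries in 2 groups, so r is given as a description only. The 5 genes most like ATF4 were TMX2, SLC35F3, PA2G4, HDAC4 and SLC25A3. TMX2, a thioredoxin-related membrane protein, had 64.9, 64.4 and 64.0 FPKM in vehicle and 43.7, 44.2 and 45.9 FPKM in SCH. Of the members, r was 0.994 for PSAT1 and for TRIB3, 0.981 for SHMT2, 0.964 for MTHFD2 and 0.873 for DDIT4. It was -0.67 for CHAC1 and -0.964 for DDIT3.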

How the data were processed

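Poly-T purified mRNA of 6 cultures was sequenced, 3 with vehicle and 3 with SCH, described in the study's records as biological repeats. Per the submitters' processing notes the tools included CASAVA 1.8, HISAT2 2.0.5, featureCounts 1.5.0-p3 and DESeq2 1.20.0, with GRCh38. The authors deposited raw read counts per gene for each sample, with no normalization. They also deposited FPKM, which within a sample was proportional to the count divided by gene length, with a scale of 0.937 to 1.01 times that of the total count.

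Counts were tested in R 4.3.3 with edgeR 4.0.16 (TMM factors, filterByExpr, quasi-likelihood test, two-sided, Benjamini-Hochberg over all 14736 tested genes, threshold 0.05). Each SE is |log2 fold change| over the square root of F. No 2 libraries were copies. The biological coefficient of variation between samples was 5.17%, and a gene at or under 3 counts in both groups got no fold change. Errors given are the spread between samples. Ratios used FPKM with nothing added, and counts over length with 0.5 added as an alternative. Exon overlap used GENCODE 29. The alternatives were RLE, library size and upper quartile scaling, DESeq2 1.42.0, no filter, a filter of 10 counts in each library, limma 3.58.1 with trend on log2 FPKM with 1 or 0.1 added, a block of replicate numbers, samples left out singly, and stricter thresholds.

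Named were all members, at most 4 called genes per list with the largest change (mean of 100 counts or more, groups apart), genes of a ratio, the 5 genes most like ATF4, pseudogenes and overlapping genes. Others are context for a group and were named after their values were seen. The members and lists were chosen with earlier results of these data known. In 12 cases the tables hold an older symbol. Some withheld items are not reported here. Scripts were tested on simulated data.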

Additional observations from a re-analysis of the deposited data

How the results depend on the processing

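Of the 9 tested members, 8 kept direction and side of the threshold in all 15 alternative fits, the exception being MTHFD2 under library size only (log2 fold change -0.12, adjusted p = 0.0591 in edgeR). Of 34 other genes followed, 33 did so, the exception being MTHFD2L, whose small log2 fold change changed sign to 0.093 under library size only, to 0.0085 without a filter, and to 0.095, 0.088 and 0.018 without vehicle replicate 3, SCH replicate 1 and SCH replicate 3. With an absolute log2 fold change of at least 1 also required, 1292 of the 14736 tested genes were called (573 raised, 719 lowered). Such a limit can only reduce these counts. Among the members 0 were called, and their log2 fold changes ran from -0.73 to 0.29. Also called were 0 of eIF2 signalling, 2 of the bZIP genes, 1 of the serine and folate list and 2 of the asparagine and proline list. The remaining lists had 1 transporter, 0 of the tRNA list, 2 other stress targets and 0 of the ATF6 and XBP1 genes. The sum over the tested members was 591 in vehicle and 412 in SCH on TMM-normalized counts per length, against 571 and 400.4 FPKM. The ratio of PSAT1 to PHGDH shifted by -0.042 to 1.05 on the log2 scale when 1 replicate was left out, with the sign changed without SCH replicate 1. Leaving out replicates gave 7809 to 8489 called genes and 7 called members each time. The replicate numbers did not pair the samples (correlations of same-numbered deviations 0.046, -0.022 and 0.022), and with the replicate block 8705 genes and 7 members were called, with no member's call changed. Depth limits PHGDH, which had 1 to 6 reads in a library.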
